A study of Mus musculus with 24 samples.

Results

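The livers of wild-type female mice that had received diethylnitrosamine (DEN) and TCPOBOP were compared with the livers of untreated wild-type females, with 4 arrays in each group. These 8 arrays were chosen by sex, genotype and treatment as labelled, out of 24 arrays in 6 groups of 4. The treated mice were given DEN at 20 mg/kg when 14 to 15 days old, and TCPOBOP at 3 mg/kg in 8 injections 2 weeks apart, the first of them 2 weeks after DEN. The controls are labelled untreated, and no age is stated for them. The other 16 arrays came from treated wild-type males, and from animals labelled dKO (untreated females, treated females and treated males), a double knockout in a series whose title names the forkhead factors Foxa1 and Foxa2. Neither labels nor protocols name the alleles, the strain or a Cre line behind wild type and dKO. All 24 samples carry the tissue label liver tumor, the untreated ones included, and the extraction text speaks of both liver samples and sorted cells. Nothing states that arrays of a group came from separate mice, so the p-values cover only the variation seen among the arrays, which may be technical.

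DEN is a carcinogen that hepatocytes activate to a DNA-alkylating compound. TCPOBOP is an agonist of the constitutive androstane receptor (CAR, Nr1i3), a nuclear receptor of hepatocytes that switches on genes of drug metabolism, enlarges the mouse liver and promotes tumours after DEN. CAR shares many targets with the pregnane X receptor (PXR, Nr1i2), and the cytochrome P450 Cyp2b10 is the textbook marker of its activation in mouse liver.

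Levels are log2 processed signals relative to the 75th percentile of their array, so that 0 is the level of that percentile, and differences are treated minus untreated on this log2 scale with the standard error of a limma fit. Levels of different genes are not compared, because probes differ in brightness. A gene is called when its Benjamini-Hochberg adjusted p from limma is below 0.05 over the 19037 genes tested. Albumin (Alb), the main secreted protein of hepatocytes, lay between 9.38 and 10.1 on the 8 arrays. Xist, transcribed from the inactive X chromosome, lay between 5.09 and 5.38, and the Y-linked Ddx3y was above background on none of them. Between 53.4% and 65.3% of spots were well above background on these arrays, with 57.4% to 62.1% in the treated and 53.4% to 65.3% in the untreated group, and the number of arrays limits the precision.

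The arrays numbered 4 stood apart in every one of the 6 groups, in that they lay at the mean of the other 3. On treated array 4, 97.0% of the 1000 genes that varied most among arrays 1 to 3 lay between the lowest and the highest of those arrays, and on untreated array 4 this share was 96.2%. For arrays 1 to 3 of the same 2 groups the shares were 47.1% to 67.6%. The difference between array 4 and the linear mean of the other 3 had an SD over genes of 0.14 log2 units in the treated and 0.13 in the untreated group, against 0.27 to 0.39 for arrays 1 to 3. Neither labels nor protocols say whether these arrays carried pooled RNA. An array that repeats the mean of the other 3 narrows the spread of its group without adding a sample, so counts are given for all 24 arrays and for the 18 arrays numbered 1 to 3. "Rose" and "fell" are kept for genes called in both fits.

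**Figure D1:**
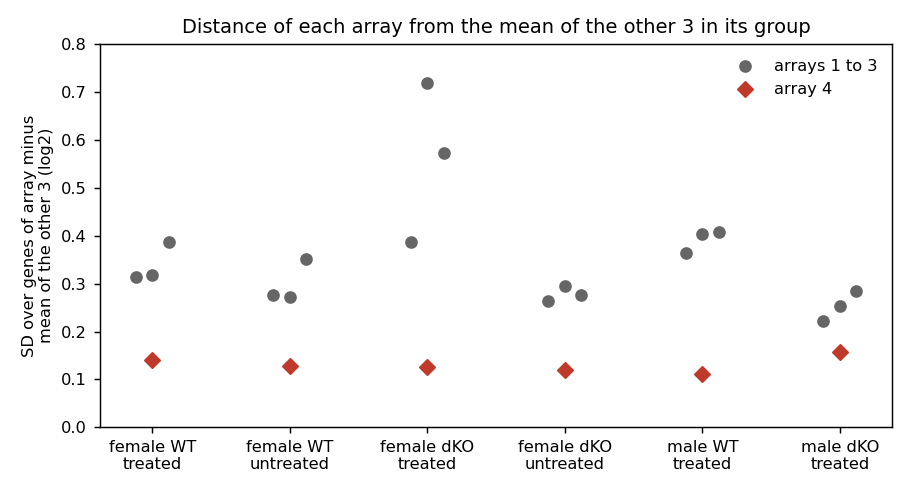
For each array, the SD over genes (y axis, log2 units) of its level minus the linear mean of the other 3 arrays of its group, with arrays 1 to 3 as grey circles and array 4 as a red diamond, by group (x axis). The 6 arrays numbered 4 lie between 0.11 and 0.16 and the other 18 between 0.22 and 0.72.

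With all 24 arrays, 3277 genes differed between treated and untreated wild-type females. Of the genes tested, 8.49% (1616) were called higher and 8.73% (1661) lower, with 887 and 373 of them by 2-fold or more. With the 18 arrays numbered 1 to 3, 397 genes were called, 1.08% higher (206) and 1% lower (191), and 395 of them were also called with 24 arrays, each in the same direction. The counts called in each list below are to be read beside these shares of all genes. The lists were chosen with earlier results of these data known, so a count above these shares is a description and not a test. The median difference over all genes was -0.06 in both fits. Treated array 3 held the highest level of several inflammatory lists, and without treated arrays 3 and 4 the count was 861, of which 823 were among the 3277. It was 1938 without treated array 3 alone, 2181 without untreated array 1, 1885 with normexp background correction, and 92 when the arrays numbered 4 were left out and slide was a fixed block.

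The untreated wild-type group differed from every other group more often than the treated one did. For 759 of 19037 genes all 4 untreated wild-type arrays lay above or below all 20 other arrays, against 58 genes for the 4 treated wild-type arrays and 290 to 517 for the other 4 groups. Of these 759 genes, 567 were called between treated and untreated wild-type females. Of the 395 genes called in both fits, 144 were among the 759, against 10 among the 58 for the treated group, so that for these the untreated wild-type group alone stands apart, and a difference from treatment and one particular to that group cannot be told apart. Examples among the genes named below as rising or falling are Sult1e1, Tmeff2, Lpl and Ighm, whose untreated wild-type arrays were the lowest of all 24. Others are Cyp4a14, Cyp4a10, Cyp4a31, Acot1, Susd4, Nlrp12, Irx1, Spink5, Unc79, Mgmt and Ung, whose untreated wild-type arrays were the highest. No untreated males were among the samples.

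Of 39 measured CAR and PXR targets, 6 rose in treated livers, among them Cyp2b10, Cyp2c55 and Akr1b7. Cyp2b10 (probe at chr7:26702056-26702115 of mm9), the marker of CAR activation, stood at 6.05, 5.37, 5.24 and 5.76 on treated arrays 1 to 4 and at 2.51, 2.62, 2.37 and 2.56 on the untreated ones. The groups were far apart and the untreated arrays nearly level. The difference was 3.09 ± 0.45, or 8.53-fold (adjusted p = 0.000138, and 0.022 without the arrays numbered 4). Within the 3 slides that held both groups it was 3.00 to 3.55. On slide 4 both arrays were those numbered 4, which lay at the mean of their groups. Its value is therefore no separate check, here and in the ranges within slides given below. In the authors' deposited table the gene is 9.21-fold higher after treatment. Treated wild-type males, at 5.40 to 5.90, overlapped the treated females. So did treated dKO males, at 5.06 to 5.34. Treated dKO females spread from 1.88 to 5.42, and untreated dKO females lay at 3.48 to 3.88. The probes of its neighbours Cyp2b9 and Cyp2b13 that stood for these genes also list other Cyp2b genes, so that their differences of 0.21 ± 0.41 and 0.63 ± 0.46, not called, are uncertain. The probes specific to each gave 0.81 ± 0.47 and -1.70 ± 1.77, also not called.

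Cyp2c55 (chr19:39116674-39116733), a cytochrome P450 induced through CAR and PXR, had the largest difference of the CAR and PXR list. Its levels were 5.71, 4.54, 4.73 and 5.22 on treated and -0.86, 0.73, -1.34 and 0.03 on untreated arrays. The gene rose by 5.41 ± 0.62 (adjusted p = 1.02e-05, and 0.00488 without the arrays numbered 4). Akr1b7 (chr6:34372905-34372964), an aldose reductase-like enzyme that detoxifies lipid aldehydes, stood at 4.16, 3.03, 3.17 and 3.68 after treatment and at -1.82, -0.03, -1.54 and -0.72 without it. It rose by 4.54 ± 0.56 (adjusted p = 2.88e-05 and 0.00861). For both genes the lowest treated array lay more than 3 log2 units above the highest untreated one.

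Of 39 measured members of this list, 13 were called higher and none lower with 24 arrays, and 6 higher and none lower with 18 arrays, with a median of 0.57. The other 3 members that rose in both fits were Meig1 (4.39 ± 0.65, on 1 of 4 untreated arrays above background), the transporter Abcc4 that exports bile acids and drug conjugates (2.34 ± 0.42), and the aldehyde dehydrogenase Aldh1a7 (1.65 ± 0.17). Called with 24 arrays only were Cyp2c65 (3.29 ± 0.73, on 1 of 4 untreated arrays above background), Prom1 (2.66 ± 0.56), the carboxylesterases Ces2a (1.66 ± 0.40) and Ces2c (0.83 ± 0.23), the growth arrest gene Gadd45b (1.65 ± 0.34), and the glutathione transferases Gstm3 (0.80 ± 0.20) and Gstt3 (0.77 ± 0.24). Neither fit called the other 26 members. Among them were the PXR target Cyp3a11 (-0.20 ± 0.52), the electron donor Por (0.12 ± 0.21), the heme synthesis enzyme Alas1 (-0.19 ± 0.25), and Cyp2c29 (0.57 ± 0.42). The list median was 0.52 to 0.81 within the 3 slides. On treated arrays 1 to 4 the members lay at a median of 0.74, 0.57, 0.31 and 0.60 above their untreated means, so that array 3 was lowest here.

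The receptors themselves were not higher. Nr1i3 was 2.94, 2.89, 2.68 and 2.92 on treated and 4.08, 3.90, 3.71 and 3.79 on untreated arrays. The groups did not overlap, yet the difference of -1.01 ± 0.53 was not called (adjusted p = 0.201) in a fit that pools the spread of all 6 groups. A lack of overlap was common. Of 19037 genes, all treated arrays lay below all untreated ones for 2763 and above them for 2117. Nr1i2 was called lower with 24 arrays only (-1.003 ± 0.19, adjusted p = 0.00148 and 0.0651). Ppara, the receptor for fatty acids, fell by 1.101 ± 0.19 in both fits. Of 15 sensing receptors and partners, none was called higher and 3 lower with 24 arrays, and Ppara was called lower with 18.

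Among enzymes of conjugation, 4 of 23 glucuronosyl- and sulfotransferases rose. Sult1e1 (chr5:88005187-88005246), the sulfotransferase that inactivates estrogens, stood at 6.43, 5.91, 6.11 and 6.10 after treatment and at -1.75, -0.65, -2.17 and -1.26 without it. It rose by 7.60 ± 0.68 (adjusted p = 4.16e-07 and 0.000751). The untreated wild-type group alone was low, because the untreated dKO females lay at 5.92 to 6.94 and the treated dKO males at 4.99 to 5.61. The sulfotransferase Sult1c2 rose by 1.59 ± 0.24, and the glucuronosyltransferases Ugt2b34 and Ugt2b35 by 0.74 ± 0.12 and 0.62 ± 0.09. Of 23 measured glucuronosyl- and sulfotransferases, 5 were called higher and none lower with 24 arrays and 4 higher with 18, at a list median of 0.04, which turned negative with normexp background correction. Of 21 glutathione transferases, 4 were called higher with 24 arrays and none with 18, beside 8.49% and 1.08% of all genes. Of 30 NRF2 targets, the genes of the oxidative stress response, 6 were called higher with 24 arrays, among them Hmox1 (1.22 ± 0.32) and Sqstm1 (0.66 ± 0.12), and 1, Abcc4, with 18.

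**Figure D2:**
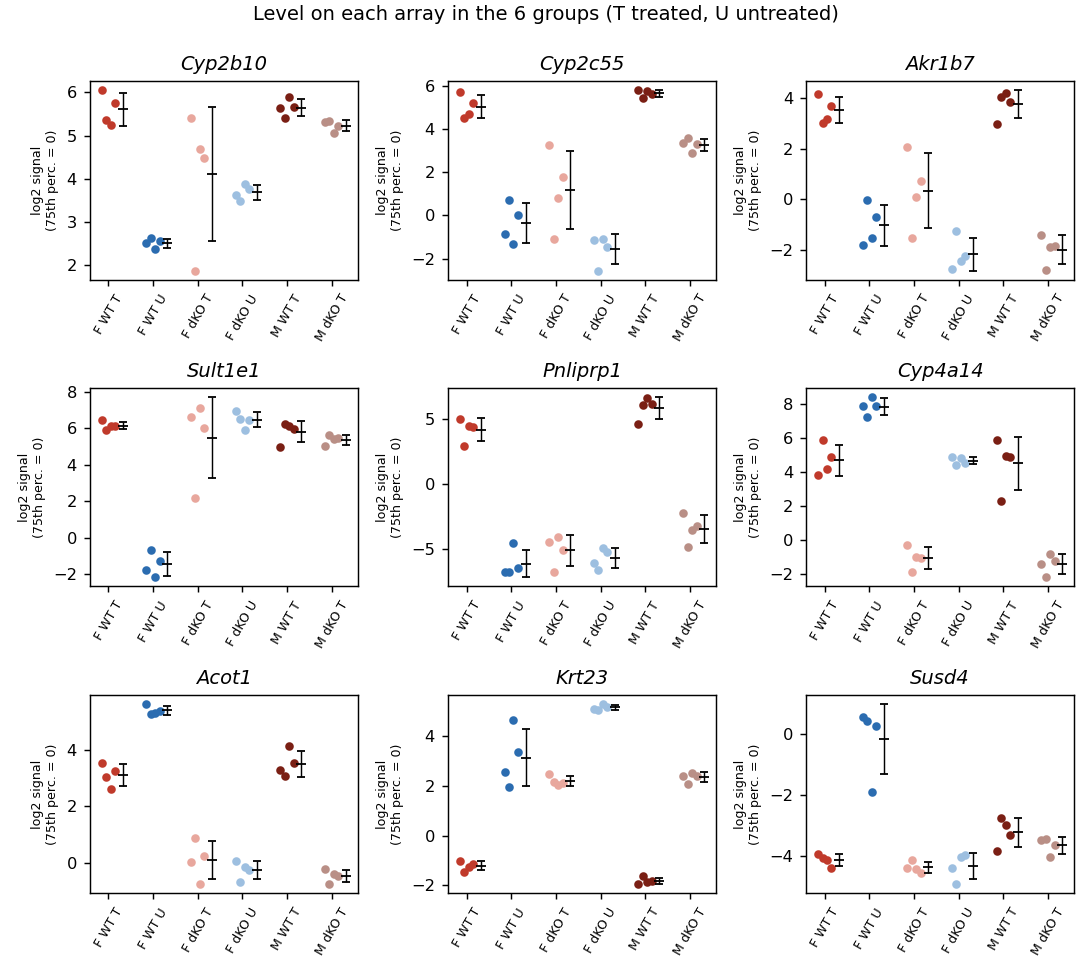
Log2 level relative to the 75th percentile of the array (y axis) of 9 genes on each array of the 6 groups (x axis; F female, M male, T treated, U untreated), one point per array, with the mean and SD of the 4 arrays as a black bar. Cyp2b10, Cyp2c55, Akr1b7 and Pnliprp1 are high in treated wild-type animals of both sexes. Cyp2b10 is also high in treated dKO males (5.06 to 5.34). Sult1e1 and Susd4 differ in the untreated wild-type females from all other groups.

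Of 34 measured genes of fatty acid oxidation, most of them targets of PPARA, 11 fell. Cyp4a14 (chr4:115158914-115158973), a fatty acid omega-hydroxylase and a sensitive PPARA target, was 3.84, 5.90, 4.19 and 4.87 on treated and 7.92, 7.24, 8.44 and 7.89 on untreated arrays. It fell by 3.18 on the log2 scale, or 9.03-fold (SE 0.57, adjusted p = 0.000954 and 0.0475), and in the authors' deposited table it is 8.33-fold lower. Acot1, an acyl-CoA thioesterase, was 3.56, 3.07, 2.63 and 3.27 after treatment and 5.66, 5.28, 5.34 and 5.39 without it. It fell by 2.28 on the log2 scale (SE 0.28, adjusted p = 2.31e-05 and 0.00741). Treated and untreated arrays did not overlap for either gene.

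Of 34 measured members of this list, 27 were called lower and 1 higher with 24 arrays, and 11 lower and none higher with 18 arrays. The median was -0.99, and -1.03 to -0.90 within the 3 slides. The 11 that fell in both fits also held the omega-hydroxylases Cyp4a10 (-2.03 ± 0.28) and Cyp4a31 (-2.11 ± 0.35), the lipase inhibitor Angptl4 (-1.33 ± 0.24), the carnitine carrier Slc25a20 (-1.13 ± 0.17), and Ppara itself. The acyl-CoA dehydrogenases Acadm (-1.04 ± 0.16) and Acadl (-1.01 ± 0.15) and the trifunctional protein subunits Hadhb (-0.97 ± 0.13) and Hadha (-0.69 ± 0.13), which carry out steps of mitochondrial beta-oxidation, complete them. Called lower with 24 arrays only was the gate of mitochondrial fatty acid import Cpt1a (-1.19 ± 0.23), among others. The hormone Fgf21 varied among untreated arrays (0.40, -2.63, 1.05 and 0.14) and was not called.

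The member called higher was Cyp4a12a (3.93 ± 0.71, with 24 arrays only), a hydroxylase that is male-biased in mouse liver. Its probe lists both Cyp4a12a and Cyp4a12b, and so does the probe for Cyp4a12b, which was called lower (-2.47 ± 0.50), so that the 2 probes of this pair disagree and neither direction can be given to either gene.

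**Figure D3:**
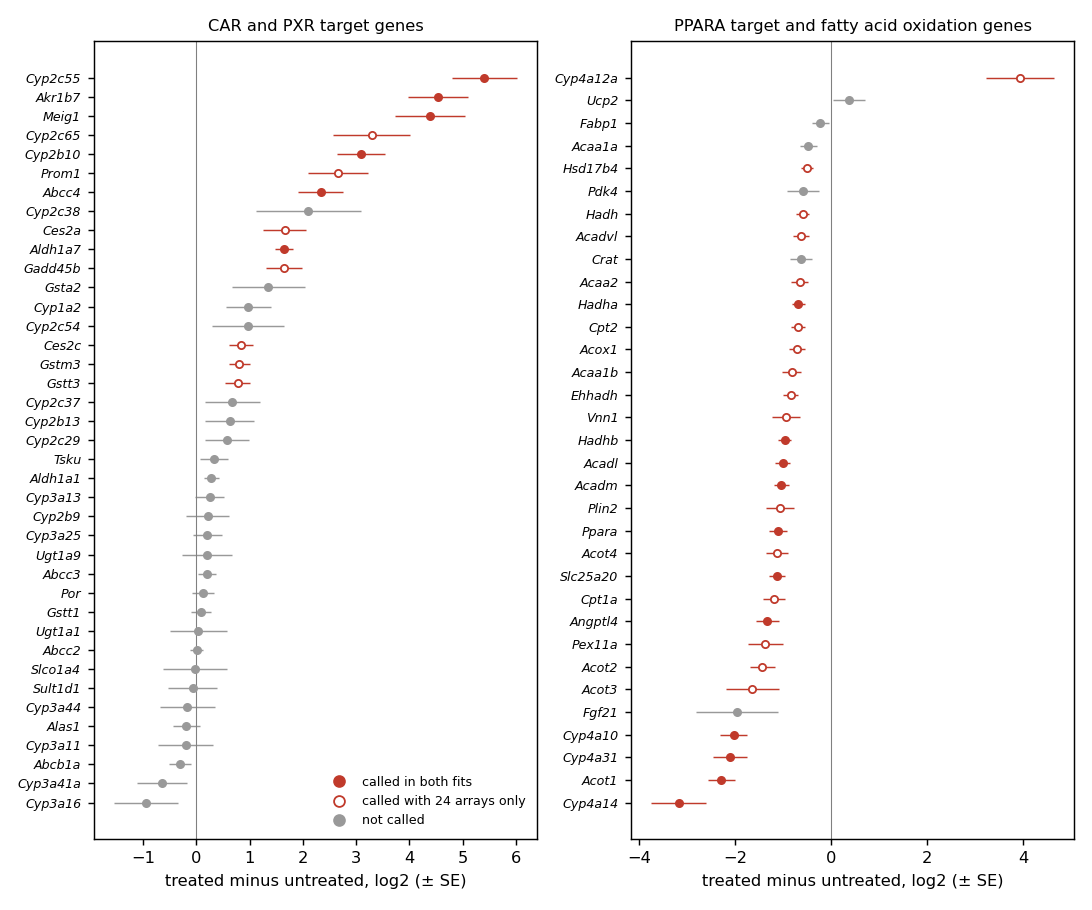
Treated minus untreated difference (x axis, log2, with SE from the 24-array limma fit) for each measured CAR and PXR target (left, 39 genes) and the PPARA target and fatty acid oxidation genes (right, with 1 member not drawn). Filled red points are called with 24 and with 18 arrays, open red points with 24 arrays only and grey points in neither; 6 on the left and 11 on the right are filled red.

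Lipid genes were called both ways, beside 8.49% of all genes called higher and 8.73% lower with 24 arrays. Lpl, the lipase that frees fatty acids from lipoproteins and is low in adult hepatocytes, was 2.50, 2.06, 3.31 and 2.67 on treated and -0.24, 0.33, 0.56 and 0.24 on untreated arrays. It rose by 2.41 ± 0.22 (adjusted p = 6.16e-07 and 0.00131). G0s2, an inhibitor of the triglyceride lipase ATGL, was 1.56, 2.14, 1.13 and 1.63 against 3.70, 3.98, 3.69 and 3.68, and fell by 2.15 on the log2 scale (SE 0.28, adjusted p = 4.46e-05 and 0.0121). Pnpla3, a lipid droplet hydrolase, rose by 3.82 ± 0.66, the phosphatidate phosphatase Lpin1 fell by 1.33 ± 0.22 and the desaturase Fads2 by 1.003 ± 0.17. Of 21 lipid droplet genes, 3 were called higher and 6 lower with 24 arrays and 1 each way with 18. Of 28 genes of fatty acid and triglyceride synthesis, 4 were called each way with 24 arrays, and 1 higher and 2 lower with 18. Fasn (0.45 ± 0.30) and Srebf1 (0.11 ± 0.23) were not called. Of 25 cholesterol synthesis genes, 3 were called higher with 24 arrays, Mvd (1.25 ± 0.29), Sqle (0.85 ± 0.24) and Fdft1 (0.81 ± 0.22), and none with 18.

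The largest rise was that of Pnliprp1 (chr19:58815028-58815621), a gene related to pancreatic lipase. It was 5.02, 2.91, 4.46 and 4.39 on treated arrays and -6.71, -6.71, -4.54 and -6.43 on untreated ones, of which 1 was above background. The difference was 10.3 ± 0.67 (adjusted p = 3.15e-09, and 3.76e-05 without the arrays numbered 4), and it is 1220-fold in the authors' deposited table. Treated wild-type males reached 4.60 to 6.60, whereas the treated dKO females stayed between -6.75 and -4.02. None of 9 measured exocrine pancreas markers was called, and Cela1, a pancreatic elastase, lay between -5.73 and -3.27 on the 8 arrays.

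Tmeff2 (chr1:51242393-51242452), a transmembrane protein with follistatin-like domains, was 0.86, 2.53, 1.74 and 1.81 after treatment and -6.64, -6.04, -6.18 and -6.31 without it, where 1 array was above background. It rose by 8.03 ± 0.50, and its 3 probes gave 4.09 to 8.03. Elapor1, an endosomal and lysosomal membrane protein, rose by 6.30 ± 0.40, and its 2 probes agreed in direction (5.70 and 6.30). Ptges, the prostaglandin E synthase, was at least 51.3-fold higher (adjusted p = 5.77e-08), and the actin-binding protein Nebl at least 26.1-fold higher (adjusted p = 3.47e-07), with no untreated array above background. These bounds set the treated mean against the lowest signal well above background, or the dim probe's own where higher. Further genes without an untreated array above background were the sodium channel Scn8a (at least 14.6-fold higher, adjusted p = 1.21e-06, with 1.81 to 5.49 from its 2 probes) and the mucosal repair peptide Tff3 (at least 11.6-fold higher, adjusted p = 0.000249). The Wnt receptor Fzd10 was called higher in both fits (4.90 ± 0.81, on 2 of 4 untreated arrays above background, with 1.22 from its other probe).

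In dKO females, which share no array with this comparison, Elapor1 (5.12), Ptges (6.20), Nebl (5.63), Scn8a (5.12) and Fzd10 (5.42) were also called higher after treatment with 24 arrays. Pnliprp1 (0.61) and Tmeff2 (0.19) were not.

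Among the largest falls was Krt23 (chr11:99339393-99339452), a type I keratin. It was -1.03, -1.45, -1.27 and -1.14 on treated and 2.57, 1.96, 4.64 and 3.36 on untreated arrays, which spread more. It fell by 4.35 on the log2 scale (SE 0.34, adjusted p = 5.77e-08 and 0.000295), and treated wild-type males lay at -1.94 to -1.64. Prom2, a relative of prominin 1, was at least 14.4-fold lower (adjusted p = 2.76e-05) and the serine protease inhibitor Spink5 at least 4.38-fold lower (adjusted p = 4.16e-07), with no treated array above background. Extl1, a glycosyltransferase of heparan sulfate synthesis, fell by 4.43 ± 0.38 (on 2 of 4 treated arrays above background), Unc79, a subunit of a sodium leak channel, by 4.63 ± 0.64 (on 3 of 4), and the transcription factor Irx1 by 3.66 ± 0.48. The membrane peptidase Mme fell by 3.97 ± 0.74 (on 3 of 4 treated arrays above background), the nicotinic receptor subunit Chrna2 by 2.79 ± 0.47 (on 1 of 4 treated arrays above background), and Nlrp12, a pattern-recognition protein of the NLR family, by 5.55 ± 1.05 (on 3 of 4). Of the 15 highest and 15 lowest genes, 24 were also called with 18 arrays. The 6 that were not are Chil1 (5.54 ± 1.05, on 1 of 4 untreated arrays above background), Duoxa1 (at least 6.98-fold higher, adjusted p = 0.00217), Ubd (4.97 ± 1.01), Gdpd3 (-4.54 ± 1.05, on 1 of 4 treated arrays above background), Hsd3b5 (-5.18 ± 0.99) and Hsd3b4 (-3.30 ± 0.84).

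Hsd3b5, a steroid dehydrogenase of male mouse liver, was -6.12, -3.95, -6.57 and -5.10 on treated arrays (1 above background) and 1.40, 0.61, -3.55 and 0.49 on untreated ones, where array 3 was low. Susd4 (chr1:184825697-184825756), a complement regulator that is male-biased in liver, was -3.95, -4.10, -4.14 and -4.40 after treatment and 0.54, 0.43, -1.90 and 0.24 without it. It fell by 3.98 on the log2 scale (SE 0.38, adjusted p = 1.04e-06 and 0.00188). The other 20 arrays lay between -4.94 and -2.78, so that the untreated wild-type females alone were high. Of 27 measured male-biased genes, 2 were called higher and 8 lower with 24 arrays and 2 lower with 18, Susd4 and the steroid dehydrogenase Hsd3b2 (-2.49 ± 0.40). Of 30 female-biased genes, 2 were called higher and 4 lower, and with 18 arrays Sult1e1 was higher and Cyp4a14 and Tox (-1.75 ± 0.30) were lower. Over all genes, 8.49% were called higher and 8.73% lower with 24 arrays. The estrogen receptor Esr1 was called lower with 24 arrays only (-0.91 ± 0.24).

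Interferon response genes were higher in treated livers, with the largest values on treated array 3. Interferons act through STAT and IRF factors on genes that block viral replication and present antigen. In bulk liver, more cells of a type and more RNA per cell cannot be told apart. Cxcl10, a chemokine that attracts T cells, was 1.63, 1.32, 5.46 and 3.89 on treated and -0.37, -0.39, -0.26 and -0.46 on untreated arrays. All treated arrays lay above all untreated ones, and arrays 3 and 4 were the highest. The difference of 3.44 ± 0.79 was called with 24 arrays only (adjusted p = 0.00624 and 0.127). Gbp2, a guanylate-binding protein of cell-autonomous defence, was 0.72, 0.89, 3.31 and 1.92 against -0.97, -0.72, -0.02 and -0.59, with the same ranking of arrays 3 and 4 and a call with 24 arrays only (2.28 ± 0.46). The ubiquitin-like modifier Isg15 was likewise called with 24 arrays only (1.80 ± 0.37).

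Of 31 interferon response genes, 24 were called higher and none lower with 24 arrays, at a median of 1.25, beside 8.49% of all genes called higher. With 18 arrays 4 were called higher and none lower, at a median of 1.21, beside 1.08% of all genes. The 4 that rose in both fits were the double-stranded RNA sensors Oas1a (2.06 ± 0.33), Oas3 (2.06 ± 0.31, on 2 of 4 untreated arrays above background) and Oasl2 (1.98 ± 0.33), and the transcription factor Irf7 (1.48 ± 0.23). Oas1a was 0.21, 0.84, 2.10 and 1.03 on treated and -0.94, -1.31, -0.57 and -1.25 on untreated arrays. The list median was 0.61, 0.91, 2.35 and 1.36 above the untreated mean on treated arrays 1 to 4, and 0.69 without treated arrays 3 and 4. Within the 3 slides it was 0.55 to 1.47. Ifi44l, which is not on the list, went the other way and was at least 5.92-fold lower (adjusted p = 4e-05, and 0.0064 without the arrays numbered 4), with no treated array above background, and its paralog Ifi44 was called higher with 24 arrays only (1.59 ± 0.37).

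Bases upstream of interferon genes are shown, since 24 of the 31 were called in 1 direction with 24 arrays. The bases are from RefSeq's promoter table (GRCm38.p6, whereas the array positions are mm9), read along each gene. Capitals mark matches to the interferon-stimulated response element, searched as a pair of GAAA repeats with 2 bases between them on either strand. The genes shown were picked from members that hold such a match and whose differences are given here. Oasl2 and Irf7, whose differences are also given, were not among the members found to hold one.
Oas1a: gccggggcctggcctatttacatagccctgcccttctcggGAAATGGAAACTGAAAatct
Oas3: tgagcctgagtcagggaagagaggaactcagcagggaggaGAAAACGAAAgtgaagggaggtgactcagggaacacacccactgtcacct
Isg15: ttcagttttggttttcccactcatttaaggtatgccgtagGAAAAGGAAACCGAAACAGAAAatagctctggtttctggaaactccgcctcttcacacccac
Gbp2: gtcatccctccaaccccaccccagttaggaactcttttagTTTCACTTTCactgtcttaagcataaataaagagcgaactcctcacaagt
Cxcl10: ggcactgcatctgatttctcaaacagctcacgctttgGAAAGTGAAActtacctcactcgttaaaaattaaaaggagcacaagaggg
The stretches lie on the minus strand at chr5:120907526-120907585 for Oas1a, chr5:120777685-120777774 for Oas3, chr4:156200835-156200936 for Isg15 and chr5:92349053-92349139 for Cxcl10, and on the plus strand at chr3:142620564-142620653 for Gbp2. Isg15 holds 3 overlapping matches and Oas1a 2. Of 23 measured interferon genes with a window in the table, 12 held the letters within 250 bases upstream of the start (52.2%), against 3.46% of all 27025 genes. They were held by 10 of 19 such genes called with 24 arrays and by 2 of 4 not called. A match is a description of the letters and not a site, and this motif was chosen after the values were seen. Of the motifs named for the other lists, TGACNNNGC stood upstream of 7 of 26 NRF2 targets (26.9%, against 11.5% of all genes) and the DR4 element, a pair of half-sites that CAR can bind, of 1 of 37 CAR and PXR targets, Cyp3a11 (2.70%, against 0.122% of all genes). The search covered only 250 bases upstream, so it does not show whether these genes hold the element farther away. TTTGAA stood upstream of 11 of 26 mitosis genes (42.3%, against 18.3%) and CCAAT of 22 of 26 (84.6%, against 37.5%).

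Markers of macrophages, T cells and B cells were called higher with 24 arrays, and few of them with 18. Treated array 3 was the highest for T and NK cell (1.91), B and plasma cell (1.35) and MHC class II (1.63) lists, but not for macrophage markers, where the treated arrays lay between 1.18 and 1.37. Of 24 macrophage and Kupffer cell markers, 13 were called higher and none lower, at a median of 1.37, and none with 18 arrays at a median of 1.38. The receptor Csf1r, on which macrophages depend, was 2.77, 2.38, 2.38 and 2.45 on treated and 0.69, 1.43, 1.36 and 1.23 on untreated arrays, so that the groups lay apart although only the 24-array fit called the difference (1.32 ± 0.34). Of 12 MHC class II and antigen presentation genes 8 were called higher, with H2-Ab1 at 1.72 ± 0.44 and the class II regulator Ciita at 2.06 ± 0.55, and none with 18 arrays. T and NK cell markers held 9 called higher of 18 with 24 arrays, and with 18 arrays 1, the NK receptor Klrd1 (1.36 ± 0.24). Of 9 B and plasma cell markers 7 were called higher with 24 arrays, and Ighm, the IgM heavy chain, rose in both fits. It was 2.60, 3.30, 2.78 and 2.88 on treated and 0.28, 0.44, 0.64 and 0.39 on untreated arrays (2.46 ± 0.31, adjusted p = 3.16e-05 and 0.0107).

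S100a8, a calcium-binding protein of neutrophils, was 4.20, 1.33, 2.52 and 3.61 after treatment and -5.45, -4.14, -3.10 and -4.07 without it (2 of 4 untreated arrays above background). It rose by 7.10 ± 1.12 (adjusted p = 0.000306 and 0.0314), while 9 of the 13 neutrophil markers, Ltf (0.83 ± 0.83) and Ngp (above background on 1 of 8 arrays) among them, were called in neither fit. Its partner S100a9 was called with 24 arrays only (1.88 ± 0.63). All 13 neutrophil markers had differences above 0, at a median of 1.11. With 24 arrays 4 of them were called higher, beside 8.49% of all genes.

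Acute phase genes, which hepatocytes switch on under IL-6 signalling, were called higher in 10 and lower in 1 of 30 cases with 24 arrays and in none with 18. Saa1, serum amyloid A, was 5.73, 5.73, 9.26 and 8.07 on treated and 3.68, 3.82, 5.38 and 4.33 on untreated arrays. The list median fell from 0.44 to 0.01 without treated arrays 3 and 4. On treated arrays 1 to 4 it was 0.01, 0.06, 1.12 and 0.42. The 6 adipocyte markers had a median of -0.70, 0.33, 3.08 and 1.33 on these arrays and of -0.43, -0.88, 1.57 and 0.13 on the untreated ones, so that array 3 was highest in both groups. Their part in the other differences was not tested.

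**Figure D4:**
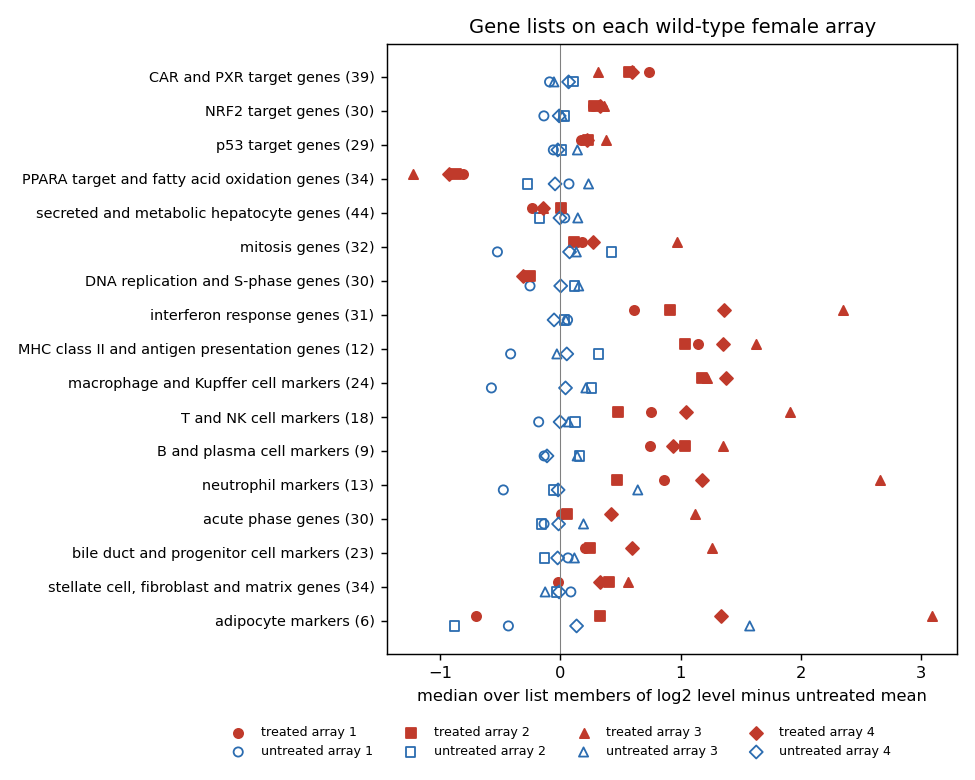
Median over the measured members of each list (numbers in brackets) of the log2 level minus the mean of the 4 untreated arrays (x axis), for each treated array (filled red) and untreated array (open blue), with array numbers by symbol. Treated array 3 lies highest for interferon (2.35), neutrophil (2.65) and adipocyte (3.08) lists, and the PPARA and fatty acid oxidation list is below 0 on all 4 treated arrays (-1.22 to -0.81).

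No mitosis or replication gene on the lists was called higher. Of 32 mitosis genes none was called in either fit, at a median of 0.29 with 28 members above 0 and 4 below. Mki67, a marker of cycling cells, was -0.75, -1.29, -0.07 and -0.67 on treated and -1.99, -0.92, -1.45 and -1.44 on untreated arrays, which overlap. Of 30 genes of DNA replication none was called higher and 7 lower with 24 arrays, with Mcm6 of the replicative helicase at -1.51 ± 0.40 and Tyms at -0.49 ± 0.10, and none with 18. Over all genes, 8.73% were called lower with 24 arrays. Myc was not called (-0.02 ± 0.25). Among 15 immediate early genes, Egr1 fell by 2.33 ± 0.37 in both fits, Fos (-2.45 ± 0.49) and Jun (-1.37 ± 0.29) were called lower with 24 arrays only, and Egr2 (1.94 ± 0.38, on 2 of 4 untreated arrays above background) and Atf3 (1.25 ± 0.38) higher with 24 arrays only.

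Targets of p53, which DNA damage induces, were called in both directions. Gadd45a, a stress-induced regulator of growth arrest, was 3.29, 2.24, 2.25 and 2.87 on treated and 1.18, 0.95, 1.45 and 1.23 on untreated arrays and rose by 1.46 ± 0.24 (adjusted p = 0.00048 and 0.0438). Perp, an effector of p53-dependent cell death, fell by 1.04 ± 0.17. Cdkn1a, the cyclin-dependent kinase inhibitor p21, was called higher with 24 arrays only (1.96 ± 0.66, on 2 of 4 untreated arrays above background), and Mdm2 (0.11), Bax (0.23) and Ccng1 (-0.08) were not called. Of 29 measured targets 4 were called higher and 2 lower with 24 arrays and 1 each way with 18, beside 8.49% of all genes called higher and 8.73% lower with 24 arrays. Of 26 DNA repair genes none was called higher and 5 lower with 24 arrays, and 3 lower with 18. Mgmt, which removes alkyl groups from guanine, fell by 0.82 ± 0.11, the uracil glycosylase Ung by 1.26 ± 0.20 and the damage kinase Atm by 0.45 ± 0.08. Mgmt was -1.65, -1.66, -1.91 and -1.72 on treated and -0.86, -0.96, -0.89 and -0.96 on untreated arrays, with no overlap.

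Genes of fetal liver and liver tumours held 9 called higher and 2 lower of 34 with 24 arrays, and with 18 arrays Tff3 and the epithelial cadherin Cdh1 (1.38 ± 0.21) were higher. Afp, the fetal serum protein and tumour marker, was -0.41, -0.60, -0.21 and -0.45 on treated and -2.14, -1.11, -2.47 and -1.73 on untreated arrays. The groups do not overlap, as for 2117 of 19037 genes in this direction, and Afp was not called (1.44 ± 0.52, adjusted p = 0.0619). H19 (2.28 ± 0.85), Igf2 (1.92 ± 0.71) and Gpc3 (0.41 ± 0.48) were not called either. The Wnt inhibitor Wif1 was called higher with 24 arrays only (3.41 ± 0.61, adjusted p = 0.000967 and 0.0507), and the Wnt target and stem cell receptor Lgr5 lower with 24 arrays only (-1.04 ± 0.23). Glul (0.10), the Wnt-dependent glutamine synthetase, and Axin2 (-0.37) were not called. Bile duct and progenitor markers held 7 called higher and 2 lower of 23 with 24 arrays, with Sox9 at 1.12 ± 0.37 (its 3 probes gave -0.34 to 1.12 and disagree), and with 18 arrays only Krt23 was called, lower. Beside these counts, 8.49% of all genes were called higher and 8.73% lower with 24 arrays.

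The secreted and metabolic hepatocyte genes were nearly level. Of 44 measured, 1 was called higher and 2 lower with 24 arrays, and none with 18, at a median of -0.14. Among liver transcription factors, Foxo1, which drives fasting genes, fell by 0.97 ± 0.13 and Cebpb by 1.01 ± 0.18. Foxa1 was -2.99, -3.36, -3.18 and -3.07 on treated and -2.11, -2.41, -2.42 and -2.27 on untreated arrays and was called lower with 24 arrays only (-0.85 ± 0.28), and Foxa2 (-0.44 ± 0.77) and Foxa3 (-0.10 ± 0.27) were not called. Foxa2 lay at 3.88 to 4.09 on treated and 3.93 to 4.92 on untreated wild-type female arrays. Its SE pools the spread of all 6 groups, among them untreated dKO females at -7.13 to -1.93. Abcb4, the phospholipid transporter of the bile canaliculus, fell by 1.11 ± 0.14, and the clock gene Per1 by 1.70 ± 0.17. Per1 was 0.50, 0.25, 0.38 and 0.23 on treated and 2.32, 2.21, 1.62 and 2.03 on untreated arrays, and no hour of tissue collection is stated in the labels.

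The treatment difference in wild-type females was set against that in dKO females, which rests on other arrays. Of the 205 genes that rose in both fits, 183 (89.3%) were also higher after treatment in dKO, and of the 190 that fell, 178 (93.7%) were lower, beside 70.0% of all 19037 genes with the same sign in both genotypes. The dKO fit with 24 arrays called 120 of the 205 higher and 143 of the 190 lower, and the fit with 18 arrays 84 of each. The interaction, wild type minus dKO, was called for 5.18% of genes (987) with 24 arrays and for 0.0368% (7) with 18 arrays, and it was called for 4 genes when the position of the array on its slide was a covariate. Of the genes given here, Pnliprp1 (9.68), Sult1e1 (8.58) and Tmeff2 (7.83) had an interaction called in both fits. The median of the CAR and PXR targets was -0.21 in dKO, that of the PPARA and fatty acid oxidation list -0.59, that of the interferon list 0.91 and that of the mitosis list 2.35. Treated dKO female arrays were uneven, with Cyp2b10 at 1.88 to 5.42 and Nr1i3 at -0.81 to 3.42. The dKO medians here and below do not show that spread.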

How the data were processed

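Total RNA was amplified, labelled with Cy3 and hybridised to 1-colour Agilent arrays, per the labels' protocols. The deposited files hold scanner intensity per spot (processed, mean and background signals) from Agilent Feature Extraction, version 10.5.1.1 per the file headers and 9.53 per the submitters' processing notes, with probe positions in mm9. The authors' deposited fold changes, a signed score per probe that is negative where treated is lower, with normalization not stated, were used for side-by-side values only.

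Spots of a probe were averaged over 41174 probes without outlier spots or controls, as log2 of the processed intensity minus the array's 75th percentile. A probe entered if 4 or more of the 24 arrays had it above background (28051 did), and each of 19037 genes was represented by its brightest probe. limma 3.58.1 in R 4.3.3 (with the data.table package, version 1.17.8) fitted 6 group means over 24 arrays (18 residual degrees of freedom), with Benjamini-Hochberg adjustment at 0.05. A second fit, and others described as added, were chosen after seeing the data. The 24-array fit was tested on simulated data with independent noise on every array. That test did not include arrays that lie at the mean of others, so it does not speak to the arrays numbered 4. Summaries used Python 3.11.15, pandas 2.3.3, numpy 2.4.6 and matplotlib 3.10.9.

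The members and the 45 gene lists were chosen with earlier results of these data known. Named genes are the 15 highest and 15 lowest called genes whose groups do not overlap, up to 5 called members of each list, and genes fixed with the lists; other list members named were chosen after their values were seen. Slide, array position, background correction, scaling, filters and left-out arrays were tried as alternatives. The arrays were scanned on 6 slides, of which 3 held a treated and an untreated wild-type female array. On slide 4 these were the arrays numbered 4. Some members counted in the lists are not reported by name here.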

Additional observations from a re-analysis of the deposited data

Results flagged for a closer look

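In 16 of 354 tests of named genes in a group with all 4 arrays above background, 1 array lay far from the other 3 by Dixon's test. The test's chance rate of about 1 in 20 is for 4 independent values. Array 4 lay at the mean of the other 3, so the count cannot be set against that rate. On the log2 scale the genes with such a treated or untreated array were Abcb4 (6.08 on treated array 2), Ciita (-2.57 on untreated array 4), Cyp4a31 (-1.88 on treated array 3), F5 (3.74 on untreated array 1), G0s2 (3.98 on untreated array 2), Gadd45b (0.95 on treated array 2), Hk3 (-0.060 on treated array 3) and Nfil3 (1.22 on treated array 3). The others were Nr1d1 (0.93 on treated array 2), Plk3 (2.79 on treated array 3), Ppara (5.04 on untreated array 1), Prom1 (-0.47 on treated array 3), Robo1 (-0.90 on treated array 2), Susd4 (-1.90 on untreated array 3), Tcf7l1 (0.77 on untreated array 2) and Tgfb2 (-2.35 on treated array 3).

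By the same test, with the same limit, 1 array lay far from the other 3 for the median of 6 lists in 90 tests. Relative to the untreated mean, these were xenobiotic-sensing receptors and partners (0.15 on untreated array 1), glutathione S-transferases (0.14 on treated array 4), lipid droplet and lipid storage genes (0.20 on untreated array 3), bile acid synthesis and transport genes (-0.28 on treated array 3), growth hormone axis and sex hormone receptor genes (-0.71 on treated array 3) and circadian clock genes (0.11 on untreated array 2).

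The treatment difference was larger or smaller in wild-type than in dKO females, by the limma interaction with 24 arrays, for 34 named genes that were also called for treatment in wild type and were above background on at least 1 array of each of the 4 female groups. The interaction was also called with 18 arrays for Pnliprp1 (9.68), Sult1e1 (8.58) and Tmeff2 (7.83), and not for the other 31. The wild-type difference was the more positive for Cdh1 (1.27), Ces2c (1.20), Cfd (10.18), Cyp2b10 (2.66), Cyp4a10 (1.35), the probe named Cyp4a12a (4.20, which also lists Cyp4a12b), Gadd45a (2.11), Gbp2 (2.35), Gstt3 (1.86), Gzmb (2.48), Ighm (2.25), Lpl (1.89), Nr5a2 (1.49), Pou2af1 (1.23), Robo1 (1.46), Scd2 (1.76), Slc22a28 (1.94) and Ugt2b34 (0.77). It was the more negative for Acot1 (-2.64), Aunip (-3.55), Chac1 (-2.77), Chrna2 (-3.37), Extl1 (-3.12), G6pc (-2.51), Hspb1 (-3.21), Lpin1 (-1.68), Mcm6 (-2.43), Mgst2 (-4.68), Rrm1 (-0.98), Susd4 (-3.94) and Ung (-1.80). Treated dKO female arrays spread more than those of the other groups, with an SD of the difference from the mean of the other 3 of up to 0.72, and the part of that spread in these values was not tested.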

How the results depend on the processing

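The count of 3277 genes for treatment in wild-type females stayed between 2411 and 3452 over the other scalings, filters and blocks, 1885 with normexp background correction excepted, and leaving out 1 array gave 1938 to 3003 (1938 without treated array 3, 2181 without untreated array 1). The added fits gave 397 without the arrays numbered 4, 861 without treated arrays 3 and 4, and 92 without the arrays numbered 4 and with slide as a fixed block. The 987 interaction calls became 407 with normexp, 563 with no filter on dim probes, 4 with array position as a covariate, 575 to 1016 without 1 array, 7 without the arrays numbered 4, 605 without treated arrays 3 and 4, and 3 without the arrays numbered 4 and with a slide block, but 1477 with slide as a fixed block, 1335 as a random block and 1152 with quantile normalization. The cause was not tested. Of 198 called genes followed, 56 kept their call without the arrays numbered 4, 82 without treated arrays 3 and 4, and 23 with the slide block added; none reversed there. Under normexp, which moved the median of all genes from -0.06 to 0.09, Ccne2 (0.17) and Foxo3 (0.032) reversed. Replicate numbers did not pair the samples (correlations of 0.05, -0.11, 0.04 and 0.27, with 1 of 4 arrays closest to its own number), and the replicate block gave 3015 treatment and 739 interaction calls. Treated and untreated arrays that shared a slide had correlations of 0.05 (slide 3), 0.23 (slide 5) and 0.27 (slide 4, the pair numbered 4). The adipocyte median was -0.27 without treated arrays 3 and 4, and the medians of lists near 0 (amino acid, bile acid, carboxylesterase, glucose, periportal and ER stress genes) changed sign with quantile normalization, and those of growth control, pancreas and glucuronosyl- and sulfotransferase genes with normexp.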

Other observations

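Other lists are given here as counts, beside 8.49% of all genes called higher and 8.73% lower with 24 arrays. Of 24 endothelial markers, 4 were called higher with 24 arrays and none with 18, at a median of 0.35 with 20 members above 0. Of 17 heat shock genes, 5 were called lower with 24 arrays and none with 18, at a median of -0.25 with 14 members below 0. Of 34 stellate cell, fibroblast and matrix genes 2 were called higher and 1 lower with 24 arrays and none with 18, at a median of 0.33. Of 29 ER stress genes, 2 were called higher and 4 lower with 24 arrays, and 1 lower with 18. Of 5 erythroid markers none was called in either fit.

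Of 33 genes of glucose metabolism, 3 were called higher and 5 lower with 24 arrays and none with 18. Of 39 genes of amino acid and urea metabolism, 2 were called each way with 24 arrays and none with 18, at a median of -0.03, which turned positive with quantile normalization, where the dKO median was -1.32. Pericentral genes, at a median of -0.23 in wild type and -1.14 in dKO, held 1 called higher and 4 lower of 24 with 24 arrays and none with 18. The periportal list held 2 each way of 22 with 24 arrays and 1 higher with 18. Of 19 circadian clock genes, 1 was called higher and 4 lower with 24 arrays, and Per1 alone, lower, with 18.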
